A study of Mus musculus with 4 samples.

Results

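The clustered protocadherins are cell-surface adhesion proteins encoded by neighbouring gene clusters named alpha, beta and gamma. Genes were taken as members where their symbol in the deposited gene list begins with Pcdha, Pcdhb or Pcdhg, which gave 57 members of 32285 genes. The alpha cluster held 14 of them, the beta cluster 22 and the gamma cluster 21. They were described by cluster across neurons, glia and the 4 single-cell libraries of a study of the chromatin remodeler gene Chd8 in the newborn mouse forebrain.

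Most clustered protocadherins join a matching protein on a facing cell through their extracellular cadherin repeats. Neurites bearing the same set of isoforms thus recognise one another as self. In the alpha and gamma clusters, each member has its own promoter and variable first exon, which is spliced to constant exons that encode a shared intracellular end, whereas each beta member is a separate gene without constant exons. Single neurons are known to choose variable members stochastically, with CTCF and cohesin looping promoters to a distant enhancer, whereas the C-type members (Pcdhac1, Pcdhac2, Pcdhgc3, Pcdhgc4 and Pcdhgc5) follow cell-type programs. In the cortex, gamma protocadherins are known for roles in dendrite branching and in the contact of astrocytes with neurons, and Pcdhgc4 for neuronal survival.

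The libraries came from C57BL/6 mice carrying NestinCreERT2 and a tdTomato reporter. The control mice were Chd8+/+, and the mutant mice were Chd8+/F, with 1 loxP-flanked Chd8 allele that Cre can inactivate. According to the study's methods, all the dams received tamoxifen at E14.5, the pups of both genotypes were delivered by cesarean section and fostered, and tdTomato-positive cells were sorted from the telencephalon at P5. Cre was driven by the Nestin promoter, so the sort was aimed at cells descended from Nestin-expressing progenitors of that time. There were 2 control and 2 mutant libraries, each from pooled mice, and p-values therefore measure the spread between libraries and not between animals. The sample label names neuronal cells, but astrocytes, oligodendrocyte precursor cells (OPCs), microglia and vascular cells were found among the sorted cells by their markers.

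The libraries held 46274374 to 79328841 unique molecular identifiers (UMIs, each standing for 1 captured RNA molecule). Filters on UMIs, genes and mitochondrial counts kept 17623 of 27742 barcodes, 79.1% and 79.3% in the replicate 1 libraries and 48.7% and 45.1% in those of replicate 2. The deposited headers name Cell Ranger 7.0.0 for both replicate 1 libraries and 5.0.1 for both replicate 2 libraries, so software version and replicate number cannot be told apart, but each genotype has 1 library of each. At most 15 kept barcodes were shared between any pair of libraries, which is at most 0.303% of the smaller one. Neurons were 3867 cells (957 excitatory and 2910 inhibitory) and glia 7208 cells (4179 astrocytes, 2467 OPCs and 562 oligodendrocytes), all non-dividing, and clusters were built with the members left out. Chd8 was measured at 83.1, 98.8, 118.6 and 147.6 CPM (UMIs of a gene scaled to an equal total for each library and class) in neurons of control replicate 1, mutant replicate 1, control replicate 2 and mutant replicate 2, and values are listed in that library order throughout. These tags come from the 3′ end of the transcript and not from the exons flanked by loxP sites, so they do not check the deletion.

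All the members lie on chromosome 18 (mm10), alpha from 36930184 to 37187661, beta from 37264938 to 37524479 and gamma from 37661793 to 37841873. In the GENCODE annotation of that build, each of the 14 alpha genes shared 2860 to 2864 exonic bases with other members, and each of the 21 gamma genes shared 2116 to 3157. A total of 22 of 24 alpha transcripts and 28 of 37 gamma transcripts ended in an exon that another member also uses. All 22 beta genes were single exons, and 2 of them, Pcdhb21 and Pcdhb22, overlapped by 455 bases. Because the assay reads the 3′ end, a read from a shared last exon cannot name its alpha or gamma member, so that alpha and gamma counts come from reads that the counting software could give to 1 gene and are uncertain as levels of a single isoform. The symbol Pcdha11 stands for a pair of gene identifiers, ENSMUSG00000102206 and ENSMUSG00000007440, which are given separately.

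The 3 clusters differed in how they divided between neurons and glia. Alpha members were higher in neurons, beta members were higher in neurons or did not pass the test, and most gamma members did not pass it in either direction. The summed alpha level was 24.3, 17.6, 62.9 and 36.0 CPM in neurons and 3.94, 4.18, 10.1 and 4.52 CPM in glia, from 114 to 317 UMIs a library in neurons and 81 to 162 in glia. Every neuron value lay above every glia value, and the difference was 2.58 ± 0.38 on the log2 scale (mean ± SD, n = 4 libraries). The summed beta level was 70.3, 57.8, 155.9 and 141.6 CPM in neurons and 40.8, 46.6, 59.5 and 53.2 CPM in glia. Beta was higher in neurons within each library, by 0.97 ± 0.53 (log2, mean ± SD, n = 4), although the lowest neuron value fell below the highest glia value. This difference did not hold for every glial type. The beta sum of OPCs was 79.3, 79.3, 140.1 and 117.5 CPM, above neurons in replicate 1 and below them in replicate 2. The summed gamma level was 60.7, 56.9, 231.1 and 125.8 CPM in neurons and 82.7, 80.9, 260.7 and 125.8 CPM in glia, a log2 difference of −0.28 ± 0.24. For gamma, neurons and glia overlapped, and control replicate 2 was the highest library in both.

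**Figure D1:**
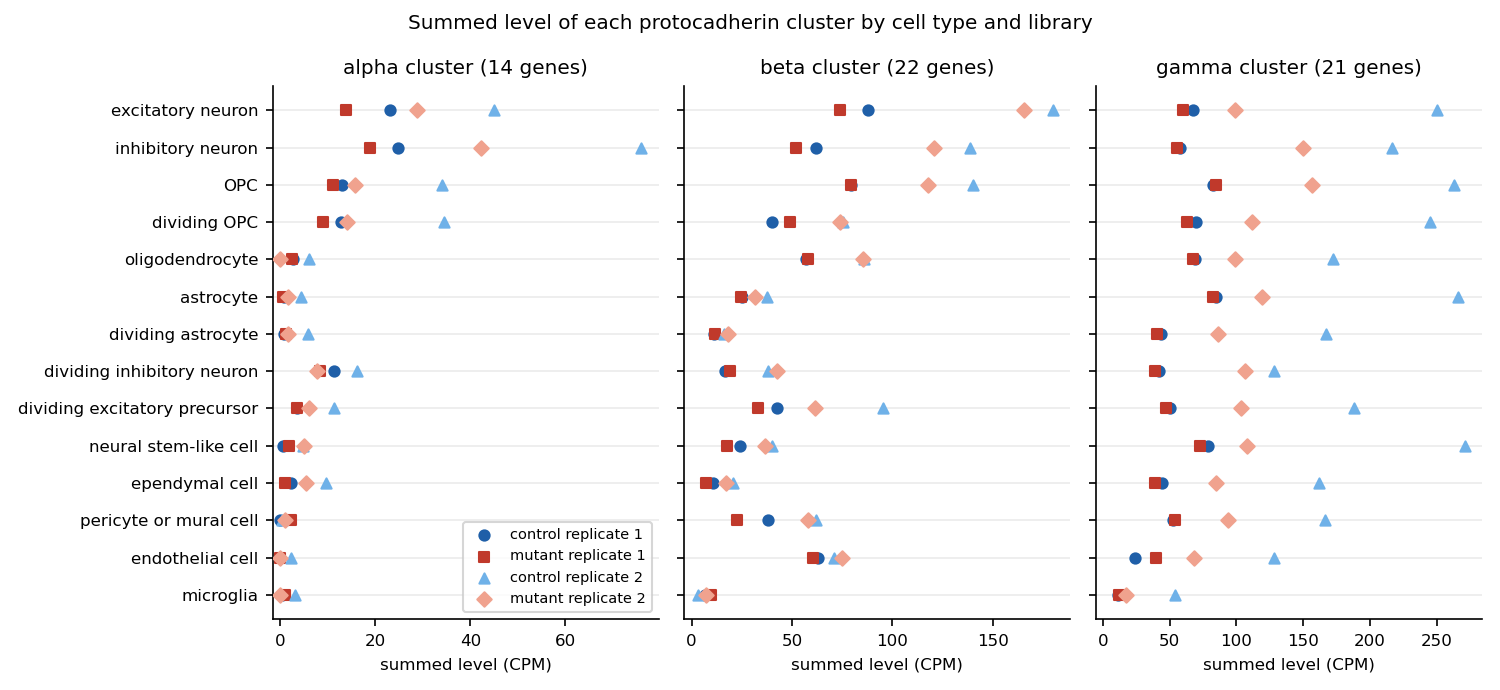
Summed level of the alpha, beta and gamma members in CPM (linear axes that differ between panels) for 14 cell types, with 1 point for each of the 4 libraries. Alpha is highest in inhibitory and excitatory neurons and low in astrocytes, beta is highest in excitatory neurons or OPCs among the types shown, which leave out fibroblasts, and in the gamma panel control replicate 2 lies to the right of the other libraries in each row.

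As a share of all member UMIs, alpha held 11.9% to 15.7% in neurons and 2.46% to 3.18% in glia. Gamma held 39.1% to 51.4% in neurons and 61.4% to 78.9% in glia. In astrocytes alone, gamma reached 76.7% to 86.3%. No test was made of these shares, since they are summed over the members.

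Each gene was then tested between neurons and glia with edgeR on sums of UMIs for each library and class, with the library as a block. The edgeR log2 differences printed here were damped by a prior count of 2, so they understate the differences of genes with few UMIs. Each standard error came from the estimate of the test, which was not damped in this way, so a value and its SE are not a matched pair. Across all 16740 genes tested, 31.7% were called higher in neurons and 36.5% lower at an adjusted p under 0.05. Of the 53 members tested, 23 were called higher and 4 lower, and their median log2 difference was 0.37 against −0.03 for all genes. All 11 alpha members tested were called higher, with log2 differences of 0.89 to 3.02 and a median of 2.30. In the beta cluster, 11 of 21 members tested were higher and none was lower (median 0.82). In the gamma cluster, 1 of 21 was higher and 4 were lower (median −0.20). Pcdha6, Pcdha8, Pcdhac1 and Pcdhb1 had too few UMIs to be tested, and Pcdhb1 had no UMI in neurons or glia. Over all libraries, Pcdha6, Pcdha8 and Pcdhac1 had 12, 13 and 7 UMIs in neurons and 11, 9 and 12 in glia. Some tested alpha members passed the filter on low counts through neurons alone, such as Pcdha1 with 23 UMIs in neurons and 3 in glia. The count of alpha members called higher therefore depends on the filter. With no such filter, 21 of 56 members were called higher and 6 lower, against 4899 and 6625 of 25285 genes. Scaling by library size alone moved the median of all genes to 0.07. With that scaling, 23 of 53 members were called higher and 3 lower, against 5999 and 5551 of 16740 genes. Without control replicate 2, 15 of 49 members were called higher and 3 lower, against 5048 and 5752 of 16526 genes. With a mitochondrial limit of 5%, 14 of 48 members were higher and 2 lower, against 5476 and 5148 of 15634 genes. Without control replicate 2 and with the mitochondrial limit of 5%, the share of members called higher was close to or below that of all genes. With no filter on low counts and with library-size scaling, it was above that of all genes.

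Among alpha members, Pcdha5, a variable isoform, was measured at 3.45, 2.06, 9.04 and 3.47 CPM in neurons and at 0.319, 0.257, 0.50 and 0.279 CPM in glia. The neuron and glia values did not overlap, and Pcdha5 was 3.02 ± 0.30 higher in neurons (log2 ± SE, adjusted p = 2.17e-05). Pcdha11 (ENSMUSG00000102206), which held 32.3% of all alpha UMIs, was measured at 7.98, 5.72, 15.2 and 13.9 CPM in neurons and at 1.45, 1.58, 2.50 and 1.51 CPM in glia. Its difference was 2.31 ± 0.23 (adjusted p = 3.92e-05), also without overlap. Pcdha4 differed by 2.65 ± 0.40, Pcdha7 by 2.35 ± 0.54 and Pcdha1 by 2.31 ± 0.77 (adjusted p = 1.84e-04, 5.91e-04 and 0.00189). Pcdha7 and Pcdha1 rest on few UMIs, 7 and 3 in glia over all 4 libraries. Pcdha9 differed by 2.16 ± 0.31 and Pcdha12 by 2.20 ± 0.48 (adjusted p = 2.31e-04 and 0.00169).

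The C-type alpha members stood at the lower end of that range or were barely detected. Pcdhac2 was measured at 1.23, 1.31, 5.06 and 2.52 CPM in neurons and at 0.709, 0.547, 2.50 and 0.892 CPM in glia. It was higher in neurons of every library, by 0.89 ± 0.27 (adjusted p = 0.0111), and its neuron and glia values overlapped between libraries. Pcdhac1 had 3, 2, 1 and 1 UMIs in neurons and 1, 6, 2 and 3 in glia, and was not tested.

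Among beta members, Pcdhb17 had the largest difference between neurons and glia. It was measured at 7.59, 8.72, 16.6 and 17.0 CPM in neurons and at 2.87, 2.90, 3.62 and 3.96 CPM in glia, a log2 difference of 1.65 ± 0.18 (adjusted p = 8.07e-05) without overlap. Pcdhb7, the beta member with the most UMIs (1224 over all kept cells), was at 10.7, 9.19, 14.8 and 19.9 CPM in neurons and 6.42, 5.31, 5.81 and 7.25 CPM in glia, higher in neurons by 0.93 ± 0.16 (adjusted p = 0.00119). Pcdhb19 was at 5.29, 4.78, 19.2 and 17.0 CPM in neurons and 3.51, 3.54, 5.75 and 4.46 CPM in glia, and higher in neurons by 1.04 ± 0.27 (adjusted p = 0.00909). Pcdhb7 and Pcdhb19 were both higher in neurons of each library, and only the Pcdhb19 classes overlapped. The abundant members Pcdhb20 and Pcdhb14 differed by 0.24 ± 0.28 and 0.22 ± 0.17, neither past the threshold (adjusted p = 0.524 and 0.242).

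Gamma members showed differences in both directions, with the C types at the extremes. Pcdhgc3, the most abundant member with 4608 UMIs and 21.1% of the gamma total, was measured at 7.59, 7.03, 27.9 and 14.8 CPM in neurons and at 21.9, 22.6, 62.0 and 28.6 CPM in glia. It was lower in neurons of every library, by −1.45 ± 0.13 (adjusted p = 2.43e-05), and the neuron value of control replicate 2 lay within the glia range. Its share of the gamma UMIs was 11.8% to 12.5% in neurons and 22.7% to 27.9% in glia. Pcdhgc4 was measured at 6.29, 7.22, 15.9 and 19.9 CPM in neurons and at 4.79, 4.79, 9.87 and 15.2 CPM in glia, and was the gamma member called higher in neurons, by 0.39 ± 0.14 (adjusted p = 0.0298). Pcdhgc5 was at 4.07, 4.03, 10.9 and 10.7 CPM in neurons and 3.58, 3.15, 8.0 and 8.42 CPM in glia, with a difference of 0.21 ± 0.15 that did not pass the threshold (adjusted p = 0.239). Of the A and B types, Pcdhga11 (−0.77 ± 0.15), Pcdhga3 (−0.65 ± 0.22) and Pcdhgb5 (−0.44 ± 0.17) were lower in neurons (adjusted p = 0.00180, 0.0237 and 0.0445). Pcdhga12 and Pcdhga7, both abundant, differed by 0.11 and −0.37 and did not pass it (adjusted p = 0.461 and 0.0637).

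**Figure D2:**
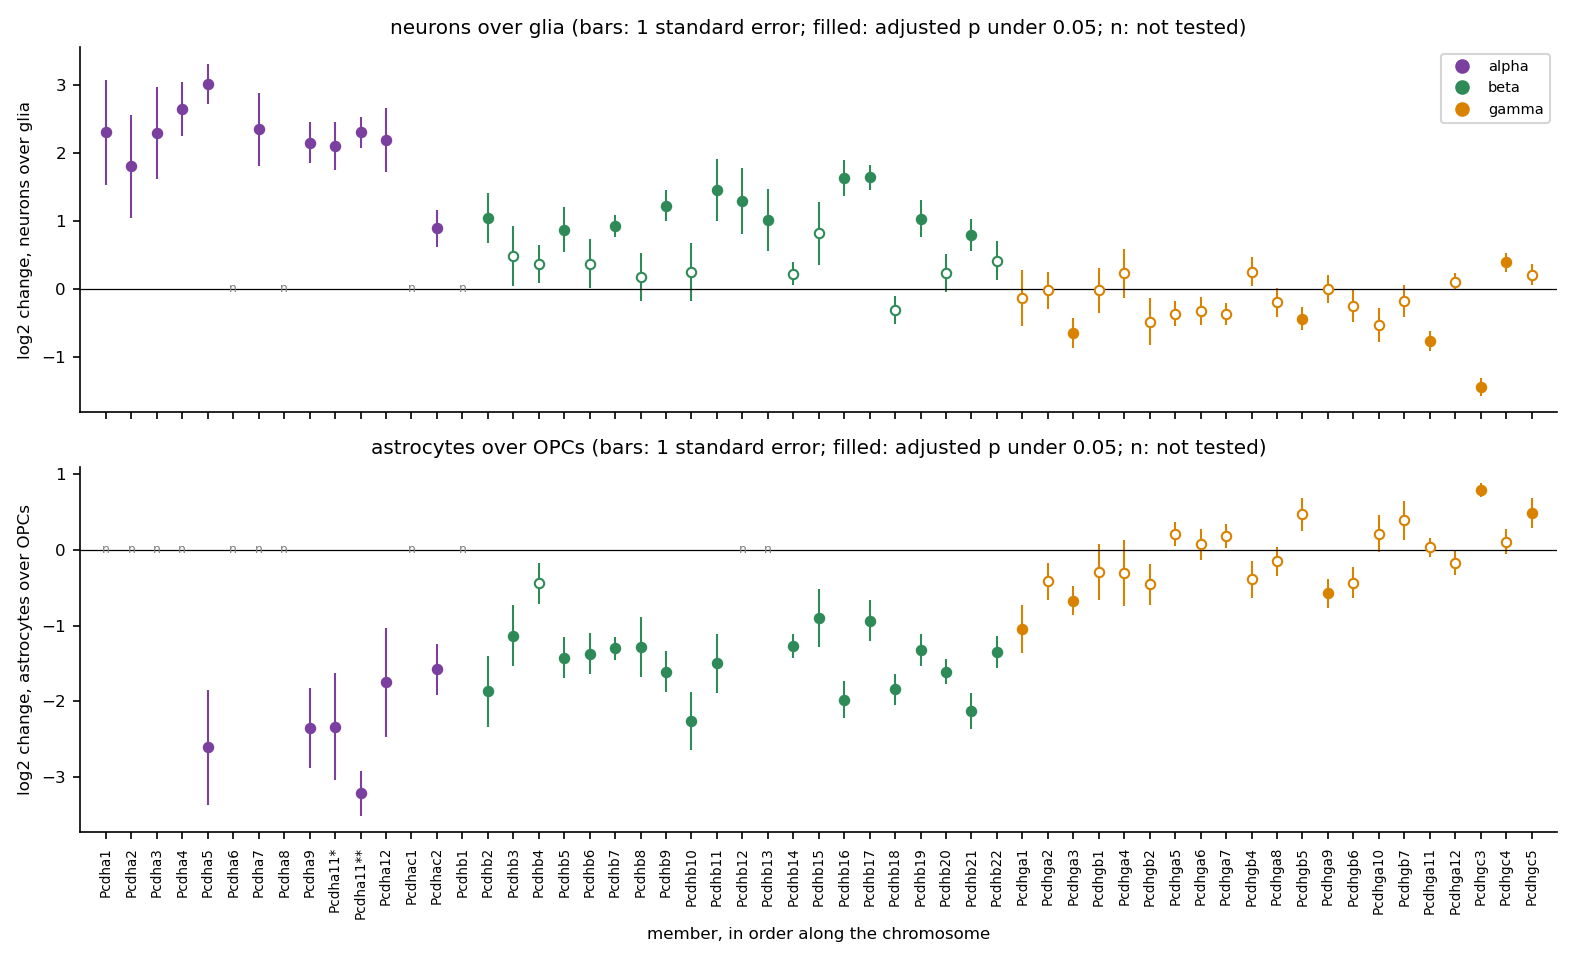
Log2 difference of each member with its standard error, in order along the chromosome, for neurons over glia (top) and astrocytes over OPCs (bottom); filled points have an adjusted p under 0.05, n marks members not tested, and Pcdha11* and Pcdha11** are ENSMUSG00000007440 and ENSMUSG00000102206. Tested alpha points lie above 0 in the top panel and below 0 in the bottom panel, beta points lie below 0 in the bottom panel, and Pcdhgc3 stands at −1.45 and 0.79.

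Counting libraries rather than testing, 11 of 14 alpha members were higher in neurons than in glia in all 4 libraries and none was lower in all 4. The same held for 11 of 22 beta members, with none lower, and for 2 of 21 gamma members, with 5 lower. The share of all genes that kept such an order was not counted, so these counts only describe the members. Marker RNA of the other class was present at a low level in each class. The 8 excitatory markers summed to 4.69 to 11.2 CPM in glia against 521 to 1185 in neurons, and the 10 inhibitory markers to 74.4 to 124.5 CPM against 2365 to 3461. The 9 astrocyte markers summed to 366 to 504 CPM in neurons against 6789 to 8649 in glia. The part of such RNA in the member levels was not tested.

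Within glia, the clusters separated further, since alpha and beta were at lower levels in astrocytes than in OPCs. The summed alpha level was 0.907, 0.725, 4.44 and 1.69 CPM in astrocytes and 13.1, 11.1, 34.0 and 15.7 CPM in OPCs, without overlap. The summed beta level was 24.9, 24.4, 37.7 and 31.8 CPM in astrocytes and 79.3, 79.3, 140.1 and 117.5 CPM in OPCs, also without overlap. The summed gamma level was 84.7, 82.6, 266 and 119.3 CPM in astrocytes and 82.8, 85.1, 263.4 and 156.5 CPM in OPCs, with overlap and with control replicate 2 highest in both. In oligodendrocytes, alpha was at 2.77, 2.58, 6.12 and 0 CPM, from 8, 13, 5 and 0 UMIs, beta at 56.8 to 85.6 CPM and gamma at 67.2 to 172.5 CPM.

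Of 15667 genes tested between astrocytes and OPCs, 32.6% were called higher and 33.8% lower in astrocytes. All 6 alpha members tested were lower in astrocytes, with log2 differences of −3.22 to −1.58, as were 18 of 19 beta members, with −2.26 to −0.44 over those tested. Pcdhb4 was the beta member that did not pass. Alpha members such as Pcdha5, with 1 UMI in astrocytes and 25 in OPCs over all libraries, passed the filter on low counts through OPCs alone. The count of alpha members called lower therefore depends on the filter. With no such filter, 3 of 56 members were higher and 30 lower, against 5649 and 5140 of 24183 genes. Of 21 gamma members, 2 were higher, 3 were lower (Pcdhga1, Pcdhga3 and Pcdhga9, by −1.05, −0.67 and −0.57) and 16 did not pass. Scaling by library size alone moved the median of all genes from −0.02 to −0.24. With that scaling, 1 of 46 members was called higher and 32 lower, against 3793 and 7249 of 15667 genes. The main fit called 2 members higher and 27 lower, against 5109 and 5296 genes. Erythroid markers summed to 8.22, 244.1, 1687 and 17.5 CPM in OPCs and to at most 16.0 CPM in astrocytes. Without control replicate 2, the library with the most of them, 1 of 44 members was higher and 26 lower, against 4681 and 5203 of 15494 genes.

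Pcdha11 (ENSMUSG00000102206) was at 0.267, 0.181, 0.905 and 0.384 CPM in astrocytes and at 5.33, 4.64, 9.25 and 5.85 CPM in OPCs, and its log2 difference was −3.22 ± 0.30. Pcdha5 had 1, 0, 0 and 0 UMIs in astrocytes and 6, 6, 8 and 5 in OPCs (log2 −2.61 ± 0.76, damped by the prior count, adjusted p = 1.36e-04). Neither overlapped between the cell types. Pcdha9 and Pcdha11 (ENSMUSG00000007440) were lower in astrocytes by −2.35 ± 0.53 and −2.34 ± 0.71 (adjusted p = 5.41e-04 and 2.56e-04). Pcdha11 (ENSMUSG00000007440) had 0, 0, 2 and 0 UMIs in astrocytes and 3, 4, 10 and 4 in OPCs. Like Pcdha5, it passed the filter on low counts through OPCs alone, so the direction of both calls is not independent of the filter. Among beta members, Pcdhb10 was at 0.427, 0.604, 0.411 and 0.0767 CPM in astrocytes and at 3.35, 2.85, 3.30 and 2.66 CPM in OPCs, a difference of −2.26 ± 0.39 (adjusted p = 1.38e-04). Pcdhb7 was at 4.37, 2.72, 3.87 and 4.83 CPM in astrocytes and at 11.9, 8.43, 14.2 and 12.8 CPM in OPCs, a difference of −1.30 ± 0.15. Each of these beta members was lower in every astrocyte sum than in any OPC sum.

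Pcdhgc3 went the other way. It was measured at 24.4, 25.4, 67.6 and 29.8 CPM in astrocytes and at 15.8, 17.2, 40.6 and 24.2 CPM in OPCs, and was higher in astrocytes of each library, by 0.79 ± 0.09 (adjusted p = 2.2e-05). Pcdhgc5 was at 3.84, 3.81, 8.63 and 8.05 CPM in astrocytes and at 3.04, 2.21, 6.61 and 9.30 CPM in OPCs, a difference of 0.49 ± 0.20 (adjusted p = 0.0423) that was in the opposite direction in mutant replicate 2. The astrocytes of replicate 1 and of replicate 2 lay mostly in different cell clusters, both of which carried astrocyte markers.

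Between excitatory and inhibitory neurons, few members were called. The excitatory sums held only 1156634 to 4077006 UMIs a library, so a missing call does not show equal levels. The median log2 difference of the members tested was 0.24, against −0.01 for all genes. Of 12228 genes tested, 22.0% were higher in excitatory neurons and 19.2% lower, while 2 of 33 members tested were higher and none was lower. Pcdhb22 was at 6.13, 2.48, 14.7 and 8.70 CPM in excitatory neurons and at 2.46, 1.91, 8.71 and 4.77 CPM in inhibitory neurons (log2 0.78 ± 0.28, adjusted p = 0.0349). Pcdhgc3 was at 8.83, 9.91, 39.8 and 16.1 CPM in excitatory neurons and at 7.03, 5.99, 19.3 and 13.7 CPM in inhibitory neurons (0.54 ± 0.20, adjusted p = 0.0448). Both were higher in excitatory neurons of every library, with ranges that overlapped between libraries. DESeq2 called 0 of 33 members, against 1890 genes higher and 1712 lower of 12228. Leaving out 1 library at a time called 0 or 1 member of 25 to 39 tested, against 1650 to 2621 genes higher and 1432 to 2370 lower. The summed alpha level was 23.1, 13.8, 45.0 and 28.8 CPM in excitatory and 24.9, 19.0, 75.9 and 42.3 CPM in inhibitory neurons, higher in inhibitory neurons of each library, and the summed beta level was 88.1, 74.0, 179.8 and 165.4 CPM against 62.2, 52.0, 138.7 and 120.5 CPM, higher in excitatory neurons of each. No alpha member was higher in excitatory neurons in all 4 libraries and 5 of 14 were lower, whereas 9 of 22 beta members were higher in all 4 and none was lower. The share of all genes ordered in this way was not counted here either.

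To set members side by side, levels were divided by the exonic bases that a member shares with no other. Counts of 3′ tags need not rise with transcript length, so the order given here depends on that divisor. In neurons, the mean level was 4.24 CPM per kilobase for Pcdhgc3, 3.90 for Pcdhb7, 3.56 for Pcdhga12, 3.54 for Pcdhgc4, 2.93 for Pcdhga11 and 2.29 for Pcdha11 (ENSMUSG00000102206). In glia, it was 9.99 CPM per kilobase for Pcdhgc3, 4.38 for Pcdhga11, 3.09 for Pcdhga12 and 2.74 for Pcdhga7. Within each cluster, members nearer to the 3′ end of the cluster tended to be at higher levels per kilobase. Spearman's rho between order on the chromosome and level in neurons was 0.48 over the 12 variable alpha members, 0.40 over 22 beta members and 0.58 over the 18 gamma A and B members, and in glia it was 0.76, 0.54 and 0.64. These are descriptions across genes counted in the same libraries, in part through shared exons.

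Per cell, members were sparse. To compare classes of unequal depth, each cell was thinned to 5000 UMIs, which left out 1102 of 3867 neurons and 995 of 7208 glia as shallower. A neuron then held on average 0.683, 0.578, 1.98 and 1.40 distinct members, and a glial cell 0.571, 0.633, 1.52 and 0.835. Neurons had more in 3 of 4 libraries and fewer in mutant replicate 1, and the mean difference was 0.271. Thinned to 3000 UMIs, neurons had more in all 4 libraries, with 0.421 against 0.387 in mutant replicate 1, and the mean difference was 0.187. Without thinning, it was −0.337, since glia had a median of 12481.5 UMIs a cell against 6765 in neurons. Microglia, which serve as a class in which free RNA can be read, held 0.0890, 0.0492, 0.276 and 0.0857 distinct members at the same depth.

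An alpha UMI was found in 9.66%, 7.66%, 23.8% and 18.7% of thinned neurons, in 7.82%, 4.87%, 13.8% and 7.39% of OPCs and in 0.340%, 0.274%, 1.70% and 0.982% of astrocytes. In microglia, it was found in 0 of 316 cells, which allows a share of up to 0.949% over the pooled libraries. A beta UMI was found in 24.2%, 21.5%, 50.6% and 38.9% of neurons and in 16.1%, 19.7%, 22.3% and 19.2% of glia, against 1.57%, 1.64%, 0% and 5.71% of microglia. A gamma UMI was found in 24.7%, 22.0%, 60.8% and 45.7% of neurons and in 30.01%, 33.0%, 67.8% and 42.1% of glia, against 6.81%, 1.64%, 17.2% and 2.86% of microglia. Neurons were above glia for alpha and beta in every library, and glia were above neurons for gamma in 3 of 4. In OPCs alone, a beta UMI was found in 29.3%, 31.5%, 41.8% and 37.0%, above neurons in replicate 1 and below them in replicate 2. No member was detected in 53.4%, 56.8%, 15.9% and 28.6% of thinned neurons, and at least 3 were detected in 4.27%, 2.16%, 32.8% and 17.7%.

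**Figure D3:**
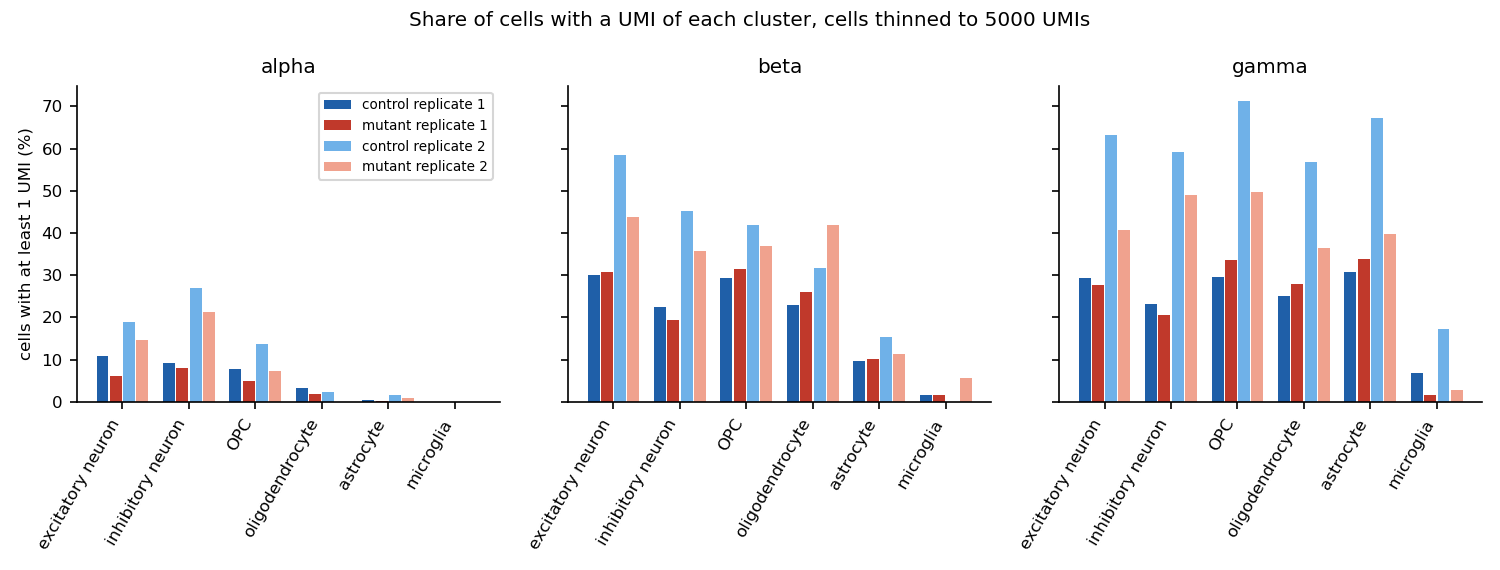
Percent of cells with at least 1 UMI of an alpha, beta or gamma member after thinning each cell to 5000 UMIs, for 6 cell types, with 1 bar per library. Microglia, shown as the background class, have no bar for alpha, and among these 6 types OPCs of control replicate 2 have the tallest gamma bar, at 71.3%.

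Mutant was compared with control to ask whether loss of 1 Chd8 allele changes these genes. In edgeR with 2 libraries for each genotype, 0.0% of the genes tested were called in either direction in neurons, glia, excitatory neurons, inhibitory neurons, astrocytes or OPCs, and no member was among the 6, 13, 7, 6, 11 and 7 genes with an unadjusted p under 0.05. DESeq2 called 0 genes in each class as well. Missing the threshold with 2 libraries for each genotype does not show that the levels did not differ. These fits also leave out the replicate number, so differences between replicates widen the spread within each genotype. With the replicate number as a block, 4 of 45 members in glia were called, all lower in the mutant, among 36 higher and 30 lower of 16370 genes. No member was called with the block in the other classes. The median log2 difference of the members was −0.49 in neurons and −0.42 in glia, against −0.01 and 0.01 for all genes. It was 0.38 and 0.17 without control replicate 2 and −1.18 and −0.63 without mutant replicate 2, but each of these leaves replicate 2 in 1 genotype only, so genotype and replicate are then mixed. For the dependence of the neuron to glia difference on genotype, edgeR called 0.0% of 16740 genes (249 at an unadjusted p under 0.05, 1 of them a member) and DESeq2 called 1 gene, not a member.

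The genotypes were then set side by side within each replicate. A change of over 2-fold was used here as a description, chosen after the values were seen. In replicate 1, 0 of 45 members in glia and 0 of 43 in neurons were lower in the mutant, against 0.849% and 1.04% of all genes, and 1 beta member in each was higher, against 1.51% and 0.977%. In replicate 2, 16 of 45 members in glia were lower in the mutant, against 4.25% of all genes, and none was higher, against 2.61%. These were 2 of 3 alpha, 2 of 21 beta and 12 of 21 gamma members. In neurons of replicate 2, 9 of 43 were lower (3 of 7 alpha, 0 of 19 beta and 6 of 17 gamma), against 6.03%, and none was higher, against 3.79%. The median log2 change of the gamma members was −1.08 in glia and −0.87 in neurons in replicate 2, and −0.01 and −0.03 in replicate 1. For the alpha members tested in neurons, it was −0.97 in replicate 2 and −0.45 in replicate 1.

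Pcdhga7 in glia was at 3.94, 4.21, 21.1 and 4.74 CPM, from 337 UMIs in control replicate 2 and 85 in mutant replicate 2. The 2 libraries of replicate 1 and mutant replicate 2 lay close together, and control replicate 2 stood 4.44 times above mutant replicate 2 (95% counting interval 3.49 to 5.71). Pcdhga8, at 2.45, 2.06, 11.3 and 2.51 CPM, had a ratio of 4.48 (3.22 to 6.36), and Pcdhga10, at 3.65, 2.35, 16.3 and 4.35 CPM, one of 3.75 (2.90 to 4.89). Pcdhga11, at 6.98, 6.47, 25.6 and 7.08 CPM, had a ratio of 3.62 (2.96 to 4.45). The same library was the high one for each. Pcdhga12 and Pcdhgc3 had ratios of 2.27 (1.93 to 2.66) and 2.17 (1.95 to 2.42), but both were also raised in mutant replicate 2. Pcdhgc4 went the other way, with a ratio of 0.649 (0.530 to 0.792), and Pcdhgc5 had one of 0.95 (0.745 to 1.21). These intervals cover counting error in a pair of libraries only.

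**Figure D4:**
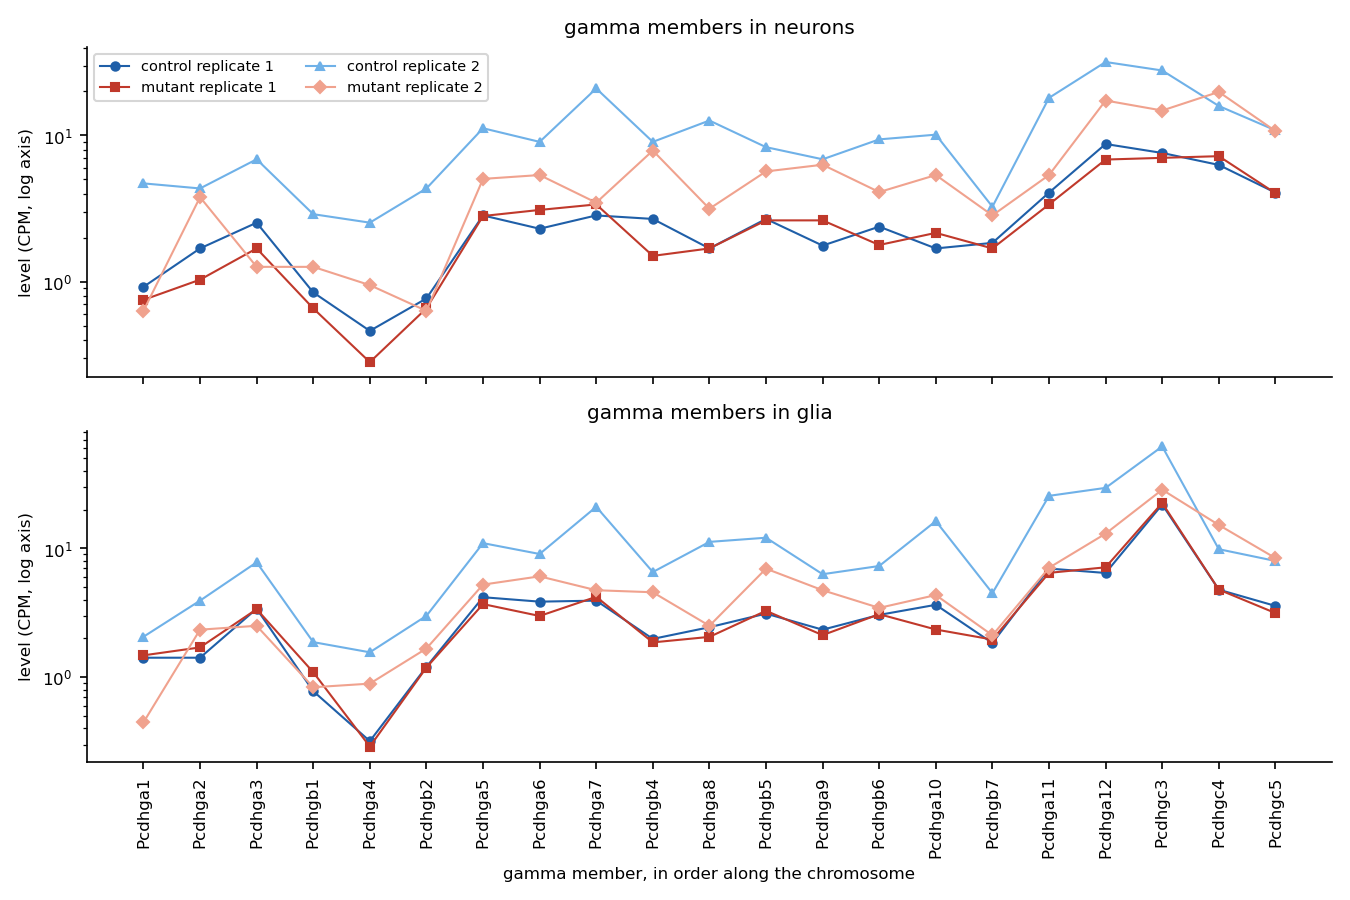
Level of each gamma member in CPM (log axis) in neurons and in glia, in order along the chromosome, with a line per library. Control replicate 2 is the highest library for 20 of 21 members in neurons and 19 of 21 in glia, and Pcdhgc4 is higher in mutant replicate 2 in both.

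For the summed levels in glia, control over mutant in replicate 2 was 2.07 for gamma (1.97 to 2.18), 2.24 for alpha (1.71 to 2.96) and 1.12 for beta (1.02 to 1.23). In neurons, it was 1.84 for gamma (1.62 to 2.09), 1.75 for alpha (1.37 to 2.24) and 1.10 for beta (0.962 to 1.26). In replicate 1, the ratios in the same order were 1.02 (0.967 to 1.08), 0.941 (0.724 to 1.22) and 0.877 (0.811 to 0.948) in glia and 1.07 (0.958 to 1.19), 1.38 (1.15 to 1.66) and 1.22 (1.10 to 1.35) in neurons. The neuronal alpha sum was thus higher in the control of both replicates. Each interval covers counting error in a pair of libraries and not the spread between libraries or animals. In replicate 1, the beta interval lay above 1 in neurons and below 1 in glia. The 5 Cajal-Retzius neuron markers summed to 28, 17.2, 187.0 and 11.3 CPM in neurons and to 13.4 to 16.3 CPM in glia, and their part in the neuronal levels of control replicate 2 was not tested. The excess of gamma in control replicate 2 was not limited to neural cells, as its sum was above that of mutant replicate 2 in 16 of 17 cell groups, with ratios from 0.860 in choroid plexus cells to 3.14 in microglia and a median of 1.89. The beta sum was higher in 12 of 15 such groups, with a median ratio of 1.10. The alpha sum was higher in the control in 9 of 10 groups in each replicate, with a median ratio of 1.28 in replicate 1 and 2.0 in replicate 2. In replicate 1, the gamma sum was higher in the control in 13 of 17 groups (median ratio 1.07) and the beta sum in 11 of 16 (1.09). The groups of a replicate come from the same pair of libraries. Some hold few alpha UMIs, such as ependymal cells with 12 in control and 6 in mutant replicate 1. Both ends of the gamma range in replicate 2 also rest on few UMIs. Control and mutant held 10 and 8 in choroid plexus cells and 17 and 7 in microglia. The glial alpha sum of replicate 1 did not follow its cell types, and OPCs, which hold more alpha than astrocytes, were 986 of 2433 glia in the mutant and 651 of 2047 in the control. Genes outside the 3 clusters with at least 30% of their exonic bases shared with another gene, also chosen after the values were seen, were lower in mutant replicate 2 by over 2-fold for 12 of 72 in glia (16.7%) and 12 of 51 in neurons (23.5%), and in replicate 1 for 1 of 72 (1.39%) and 1 of 51 (1.96%). In replicate 2, 0 of 72 and 4 of 51 (7.84%) were higher, and the median log2 change was −0.08 and −0.13. The part of read assignment in these differences was not tested.

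**Figure D5:**
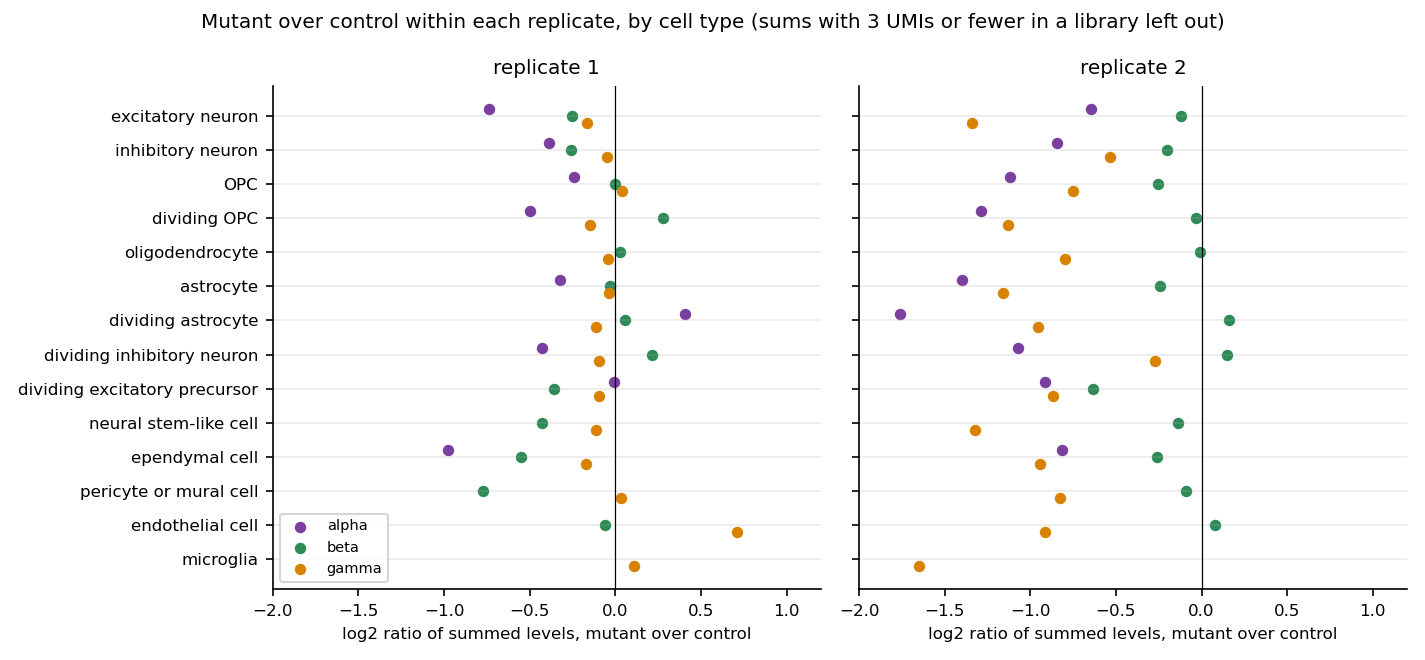
Log2 ratio of the summed level in the mutant over the control library for each cluster and cell type, within replicate 1 (left) and replicate 2 (right), leaving out sums of 3 UMIs or fewer in a library. For the 14 cell types drawn, which do not include choroid plexus cells, the gamma and alpha points of replicate 2 lie below 0.

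Replicate 2 was also compared with replicate 1 over both genotypes, since the software version goes with it. In neurons, 19.0% of 14019 genes were higher and 27.8% lower in replicate 2, and 33 of 43 members were higher (5 of 7 alpha, 13 of 19 beta and 15 of 17 gamma) and none lower. In glia, 18.4% of 16370 genes were higher and 26.9% lower, and 17 of 45 members were higher (1 of 3 alpha, 1 of 21 beta and 15 of 21 gamma) and none lower. Leaving out control replicate 2 leaves 1 library for replicate 2, so only medians are given. The median log2 difference of the members was then 0.92 in neurons and 0.31 in glia, against −0.06 and −0.04 for all genes. With all libraries, the member median was 1.31 in neurons and 0.60 in glia. In neurons, Pcdha12 was at 0.920, 0.656, 7.60 and 4.73 CPM, higher in replicate 2 by 2.50 ± 0.46 (adjusted p = 8.05e-04), and both replicate 2 libraries lay above both of replicate 1. Pcdhga8 (1.97 ± 0.56), Pcdhga7 (1.81 ± 0.60), Pcdhga10 (1.79 ± 0.41) and Pcdhgb4 (1.79 ± 0.38) followed. In glia, Pcdhga10 (1.76 ± 0.51), Pcdhga4 (1.74 ± 0.46), Pcdhga7 (1.65 ± 0.53), Pcdhga12 (1.64 ± 0.33) and Pcdhga8 (1.58 ± 0.55) differed most. Pcdhgc4, which was not highest in control replicate 2, was higher in replicate 2 by 1.30 ± 0.24 in neurons and 1.37 ± 0.24 in glia (adjusted p = 0.00148 and 0.00130).

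Single-exon genes other than members were called higher in replicate 2 for 188 of 580 in neurons (32.4%) and 213 of 804 in glia (26.5%), against 18.2% and 17.9% of genes with several exons. Beta members, which are single-exon genes, were higher for 68.4% of those tested in neurons and 4.76% in glia. The neuron to glia difference itself depended on replicate for 2.13% of 16740 genes upward and 3.1% downward, and for 1 of 53 members, Pcdhb19. That gene was higher in neurons than in glia by more in replicate 2, with an interaction of 1.23 ± 0.29 (log2 ± SE, adjusted p = 0.0385).

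Other genes of the protocadherin system were read from lists of regulators, intracellular partners, non-clustered protocadherins and atypical cadherins. The shares to set beside these counts are 31.7% of all 16740 genes called higher in neurons than in glia and 36.5% called lower. Of 21 regulators of the clusters, 10 were higher and 1 lower in neurons than in glia. Wiz (0.87 ± 0.08), which binds at CTCF-anchored loops, and the histone methyltransferase gene Ehmt1 (0.85 ± 0.07) were higher in neurons, and the DNA methyltransferase gene Dnmt3a was lower. Of 14 partners, 3 were higher and 8 lower. Ret (1.42 ± 0.56) and Ptk2b (1.14 ± 0.68), genes for kinases of the protocadherin signalling path, were higher on few UMIs. Ptk2b had 22, 8, 0 and 0 UMIs in neurons and 5, 8, 5 and 1 in glia, so both libraries of replicate 2 went the other way. Marcks, whose actin-binding product is linked to gamma protocadherins, was lower by −0.98 ± 0.06. Of 11 non-clustered protocadherins tested, 1 (Pcdh8) was higher in neurons and 8 were lower, among them Pcdh11x (−2.80 ± 0.13), Pcdh10 (−2.45 ± 0.08) and Pcdh19 (−2.06 ± 0.16). Of 8 atypical cadherins tested, 4 were higher, including Dchs2 (4.18 ± 0.19) and Celsr3 (3.59 ± 0.17), and 4 were lower, including Fat1 (−3.53 ± 0.13). None of the genes on the 4 lists was called for genotype in any of the 6 classes by the fits without the replicate block. Those fits called 0.0% of all genes, so this does not show that the listed genes were unchanged. Calls with the block were not counted for the lists.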

How the data were processed

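Single-cell RNA-seq was done with the 10x Chromium 3′ chemistry on sorted cells of 2 control and 2 mutant libraries, and the deposited matrices hold raw UMI counts per gene and barcode that the authors made with Cell Ranger on mm10 (7.0.0 for replicate 1 and 5.0.1 for replicate 2 in the file headers, 3.0 in the submitters' processing notes). Following the study's methods, barcodes were kept if they had 2000 to 40000 UMIs, 1000 or more genes and no more than 10% of counts from mitochondria. Cells were clustered with scanpy 1.11.5 (Python 3.11.15) on 2000 variable genes without the 3 members among them, using 30 principal components, 15 neighbours and a resolution of 1, and named from marker lists, with naming limits that were set after the cells were examined. Scrublet marked 0.202% to 2.79% of cells as doublets, which were kept, and their removal was an alternative. UMIs were summed per library and class and tested with edgeR 4.0.16 (R 4.3.3; quasi-likelihood, filterByExpr, TMM) over all genes, with Benjamini-Hochberg adjustment at 0.05. CPM values were scaled to the UMI total of the class in the library. Shared exons came from GENCODE gene models, to which 99.6% of the 32285 gene identifiers matched. Log2 differences printed from edgeR used a prior count of 2, and their SEs came from the estimate of the test without it. Log2 changes of single genes within a replicate used a pseudocount of 0.5.

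Class totals were 2764575 to 13037545 UMIs in neurons and 16004877 to 31091621 in glia, so a member of 1 CPM had under 14 UMIs in any neuron sum. The members and lists were chosen with earlier results of these data known. The genes named were the C-type members, the 5 members per cluster with the most UMIs, members called for genotype or an interaction, up to 5 called members per direction in each other comparison and 3 called genes per list, of which 1 is not reported here; others, such as Pcdhb4, Pcdhb13 and Pcdha6, were named after their values were seen. Alternatives were DESeq2 1.42.0, library-size scaling, other count filters, no library block, a replicate block, a resolution of 2, a mitochondrial limit of 5%, thinning to 3000 UMIs, and leaving out each library. All members lie on 1 chromosome whose sequence is not printed here.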

Additional observations from a re-analysis of the deposited data

Results flagged for a closer look

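Pcdhb19, a single-exon beta member, was flagged because its difference between neurons and glia itself differed between replicates, by 1.23 ± 0.29 on the log2 scale (edgeR interaction, adjusted p = 0.0385). It was 1 of 53 members tested, against 2.13% of 16740 genes called upward and 3.1% downward, so the members did not exceed the share of all genes. It was at 5.29 and 4.78 CPM in neurons of the replicate 1 libraries and at 19.2 and 17.0 CPM in those of replicate 2, against 3.51 and 3.54, then 5.75 and 4.46 CPM in glia. Neurons of replicate 2 lay above the other sums in both genotypes. The call was lost with DESeq2 (adjusted p = 0.126), without control replicate 2 (0.172) and without mutant replicate 2 (0.222), and it was kept without control replicate 1 (0.0194), without mutant replicate 1 (0.0353) and with library-size scaling (0.0317). Replicate and software version go together, and their parts cannot be told apart.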

How the results depend on the processing

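Members called between neurons and glia numbered 27 of 53, against 5303 genes higher and 6110 lower of 16740. With at least 10 counts in every sum, they were 14 of 29, against 3733 and 4056 of 10763 genes. Without the library block, they were 12 of 47, against 2727 and 3870 of 15263 genes. A mitochondrial limit of 5% gave 16 of 48, against 5476 and 5148 of 15634 genes. When 1 library was left out, 15 to 27 were called, with 49 to 52 tested, against 4214 to 5054 genes higher and 4816 to 5752 lower of 15810 to 16526. Between excitatory and inhibitory neurons, the 2 calls of 33 members became 0 of 33 with DESeq2, against 1890 and 1712 of 12228 genes. They became 5 of 56 with no filter on low counts, against 2868 and 3026 of 22883 genes. Without the library block they became 0 of 21, against 802 and 470 of 11220 genes. With a library left out, 0 to 1 were called, with 25 to 39 tested, against 1650 to 2621 genes higher and 1432 to 2370 lower of 11100 to 12967. Between astrocytes and OPCs, the 29 calls of 46 members became 15 of 28 with at least 10 counts, against 3750 and 4090 of 11140 genes. Without the library block they became 16 of 40, against 2792 and 2490 of 14447 genes. With a library left out, 25 to 29 were called, with 44 to 46 tested, against 4390 to 4692 genes higher and 4577 to 5204 lower of 14745 to 15494. For replicate 2 against replicate 1, the 33 calls in neurons became 21 with DESeq2 and 14 to 32 with a library left out, and the 17 in glia became 9 and 8 to 23. The 1 call for class by replicate became 0 with DESeq2 and 0 to 3 with a library left out. The log2 difference of the alpha sum was 2.18 rather than 2.58 at a mitochondrial limit of 5%, and the difference in distinct members per cell turned from 0.271 to −0.337 without thinning. The causes of these shifts were not tested, apart from the smaller number of genes or samples that some alternatives test by construction and the unequal depth that thinning removes.

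Replicate numbers are shared by the genotypes, but the labels do not say what they mark, and same-numbered libraries deviated together (r = 0.871 over genes in neurons and 0.894 in glia). With the replicate block, 4 of 45 members were called for genotype in glia against 0 without it, all lower in the mutant: Pcdhga7 (−1.06), Pcdhga8 (−1.23), Pcdhga10 (−1.31) and Pcdhga11 (−0.999), with adjusted p-values of 0.00668, 0.00987, 4.12e-04 and 0.00343, among 36 higher and 30 lower of 16370 genes. In the other 5 classes, the block called 0 members. Within replicate 1, control over mutant was 0.934 (95% counting interval 0.719 to 1.21), 1.19 (0.833 to 1.70), 1.56 (1.14 to 2.13) and 1.08 (0.883 to 1.32) for them in glia. Single genes were followed only in the comparisons of neurons with glia, excitatory with inhibitory neurons, and astrocytes with OPCs, not for genotype. There, 596 of 648 alternatives left the call as it was, 48 lost it and 4 gained it. In 0 of them did a gene with a call turn its direction, and changes of direction in genes without a call were not counted.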

Other observations

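Dividing progenitors and cells outside the neural classes of the comparisons also differed in which cluster they held, given here as values with no test. In dividing inhibitory-lineage cells, the alpha sum was 11.3, 8.38, 16.2 and 7.71 CPM, below the 24.9, 19.0, 75.9 and 42.3 CPM of the non-dividing inhibitory neurons in every library. The beta sum was 16.6, 19.2, 38.2 and 42.4 CPM against 62.2, 52.0, 138.7 and 120.5, again lower in each. Dividing OPCs held alpha at 12.8, 9.11, 34.5 and 14.2 CPM, close to the 13.1, 11.1, 34.0 and 15.7 CPM of non-dividing OPCs, with beta at 40.3, 48.9, 75.2 and 73.7 CPM, lower than in non-dividing OPCs in each library. Dividing astrocytes had beta at 11.2, 11.6, 16.1 and 18 CPM and gamma at 43.6, 40.3, 167 and 86.4 CPM, both below the non-dividing astrocytes.

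Neural stem-like cells had alpha at 0.648, 1.81, 4.81 and 5.12 CPM from 3 to 8 UMIs and gamma at 78.9, 73.1, 271 and 108 CPM. Vascular and meningeal cells had few alpha UMIs. Fibroblasts (103 cells) had beta at 91.3, 80.0, 119 and 97.5 CPM with 1, 0, 0 and 0 alpha UMIs, and endothelial cells (166 cells) had beta at 62.9, 60.3, 70.8 and 74.7 CPM with 0, 0, 1 and 0 alpha UMIs. Pericytes or mural cells (570 cells) had beta at 38.2, 22.4, 61.9 and 58.1 CPM, below both in every library, with 0, 2, 1 and 3 alpha UMIs. In microglia, beta was at 6.81, 9.83, 3.17 and 7.36 CPM from 19, 9, 1 and 3 UMIs, below the fibroblasts and endothelial cells in every library.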
